A study of Mus musculus with 12 samples.

Results

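A set of 10 genes that mark mouse pluripotent cells was examined for the repressive histone mark H3K27me3 in immortalized mouse embryo fibroblasts (iMEF), a somatic cell type in which these genes are normally silent. The genes were Pou5f1, Nanog, Zfp42, Lin28a, Dppa3, Esrrb, Tfcp2l1, Tdgf1, Sall4 and Utf1. Every deposited H3K27me3 site that overlapped the body of one of these 10 genes, or the 20 kb on either side of it, was taken. This gave 97 of the 101389 sites in the list. A site was called a promoter site if at least 1 base lay within 1 kb of an annotated transcription start site (TSS) of the gene, and a distal site otherwise.

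The sites were found by ChIP-seq, the sequencing of DNA that was pulled down with an antibody against the mark. In all samples the endogenous Ash2l gene had been inactivated by deletion of exon 4 through a Cre-ER recombinase under the CAGG promoter, and the cells lived on human ASH2L fused to FKBP12(F36V)-HA2, delivered by lentivirus. ASH2L belongs to the COMPASS/KMT2 complexes, which methylate histone H3 at lysine 4, and dTAG-13 directs the fusion protein to degradation. The 8 H3K27me3 libraries comprised 2 of untreated cells and 2 for each time of dTAG treatment (16, 24 and 48 h), beside 4 input libraries of chromatin without immunoprecipitation, 2 from untreated cells and 2 from cells given dTAG for 48 h. The ChIP experiments of the study used 1 cell clone, named NG3. The deposited list joins the sites of all samples and gives only chromosome, start and end. A site in it may thus come from untreated cells, treated cells or both, which cannot be told apart, and no level, replicate error, depth obtained or change with dTAG can be given from it. Neither was RNA measured in these files, so the silence of the genes in these cells was not tested.

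H3K27me3 is placed by Polycomb repressive complex 2 and is found over silent genes, often as broad domains around the start sites of developmental regulators. Pluripotent cells keep their state through a network of transcription factors with Pou5f1 (OCT4), Sox2 and Nanog at its core, joined by Esrrb, Tfcp2l1, Sall4, Utf1 and Zfp42 (REX1). Lin28a is an RNA-binding protein that blocks maturation of let-7 microRNAs, Tdgf1 (CRIPTO) is a co-receptor for NODAL, and Dppa3 (STELLA) is a maternal factor that protects the early embryo's genome from loss of DNA methylation. In somatic cells such genes are known to be shut down by DNA methylation, by repressive histone marks, or by both.

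A promoter site was listed for 7 of the 10 genes, namely Lin28a, Esrrb, Tfcp2l1, Tdgf1, Sall4, Utf1 and Pou5f1. Among all 21755 protein-coding genes 5848 had one, which is 26.9%. When the annotated 5' end of the gene was used alone, 6 of 10 genes had a site, against 24.1% of all genes, and Pou5f1 was the one that dropped out. No promoter site was listed for Nanog, Dppa3 or Zfp42. Within the gene and 20 kb on either side, 9 of 10 genes had at least 1 site, against 61.5% of all genes, and Zfp42 was the one without. The values are descriptions of 1 joined list, and no test was run on them.

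The bases just before the start site are shown for 3 genes with a site at their 5' end and 3 without, since the latter include Pou5f1 and Nanog and since CpG content is a known feature of Polycomb-bound promoters. Each stretch holds the 250 bases upstream of the RefSeq start on GRCm38.p6, written 5' to 3' on the strand of the gene, with CpG dinucleotides in capitals. The stretches of Tfcp2l1 (chr1:118627695-118627944, + strand) and Lin28a (chr4:134018817-134019066, - strand) lie wholly in a listed site. The stretch of Tdgf1 (chr9:110946159-110946408, - strand) lies just outside one, since the site begins 21 bp inside the gene. The stretches of Pou5f1 (chr17:35505782-35506031, + strand), Nanog (chr6:122707239-122707488, + strand) and Zfp42 (chr8:43307010-43307259, - strand) hold no base of any site.
Tfcp2l1: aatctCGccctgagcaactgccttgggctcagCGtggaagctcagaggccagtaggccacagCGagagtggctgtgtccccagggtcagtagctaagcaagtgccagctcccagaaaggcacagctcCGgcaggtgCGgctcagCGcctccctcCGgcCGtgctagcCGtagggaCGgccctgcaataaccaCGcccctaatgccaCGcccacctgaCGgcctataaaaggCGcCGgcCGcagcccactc
Lin28a: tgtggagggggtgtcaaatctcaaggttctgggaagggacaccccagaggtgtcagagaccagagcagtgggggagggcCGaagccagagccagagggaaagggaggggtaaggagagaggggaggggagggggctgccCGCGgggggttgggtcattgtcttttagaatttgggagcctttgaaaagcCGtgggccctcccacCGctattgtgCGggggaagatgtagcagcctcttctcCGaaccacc
Tdgf1: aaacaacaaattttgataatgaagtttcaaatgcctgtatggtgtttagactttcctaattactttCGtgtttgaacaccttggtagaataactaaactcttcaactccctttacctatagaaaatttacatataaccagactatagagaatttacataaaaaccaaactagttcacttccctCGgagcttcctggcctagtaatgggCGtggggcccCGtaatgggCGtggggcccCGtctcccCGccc
Pou5f1: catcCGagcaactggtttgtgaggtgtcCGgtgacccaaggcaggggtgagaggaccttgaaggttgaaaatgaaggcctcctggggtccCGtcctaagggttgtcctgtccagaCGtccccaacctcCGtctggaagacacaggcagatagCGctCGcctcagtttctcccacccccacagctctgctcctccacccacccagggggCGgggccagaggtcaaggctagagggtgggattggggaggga
Nanog: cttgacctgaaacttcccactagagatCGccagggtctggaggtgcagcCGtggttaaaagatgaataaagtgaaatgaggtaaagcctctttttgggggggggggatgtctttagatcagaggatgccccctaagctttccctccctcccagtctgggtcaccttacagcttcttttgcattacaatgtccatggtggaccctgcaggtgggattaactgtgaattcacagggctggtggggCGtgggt
Zfp42: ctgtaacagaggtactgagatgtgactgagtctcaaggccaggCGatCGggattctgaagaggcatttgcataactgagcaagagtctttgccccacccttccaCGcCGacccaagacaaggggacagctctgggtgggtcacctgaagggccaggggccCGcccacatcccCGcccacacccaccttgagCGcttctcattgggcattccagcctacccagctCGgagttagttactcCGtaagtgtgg

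CpG content did not divide the genes with a site from those without. The 250 bases held 16 CpG in Tfcp2l1 and 7 each in Lin28a and Tdgf1, against 8 in Pou5f1, 3 in Nanog and 9 in Zfp42. Of the 10 genes 8 were found in the RefSeq promoter table, whose entries run from 250 bases before to 50 bases after a start. Over those 300 bases Tfcp2l1 held 21 CpG, Utf1 17, Pou5f1 and Zfp42 11 each, Lin28a 10, Tdgf1 7, Esrrb 7 and Nanog 4, and the median of all 32851 entries was 7. The GC box, GGGCGG on one strand or CCGCCC on the other, was present in the first entry of 5 of the 8 genes (Pou5f1, Zfp42, Lin28a, Tdgf1 and Utf1) and in 35.7% of all entries. It thus occurred both with and without a site, and a match of these letters is a description only.

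**Figure D1:**
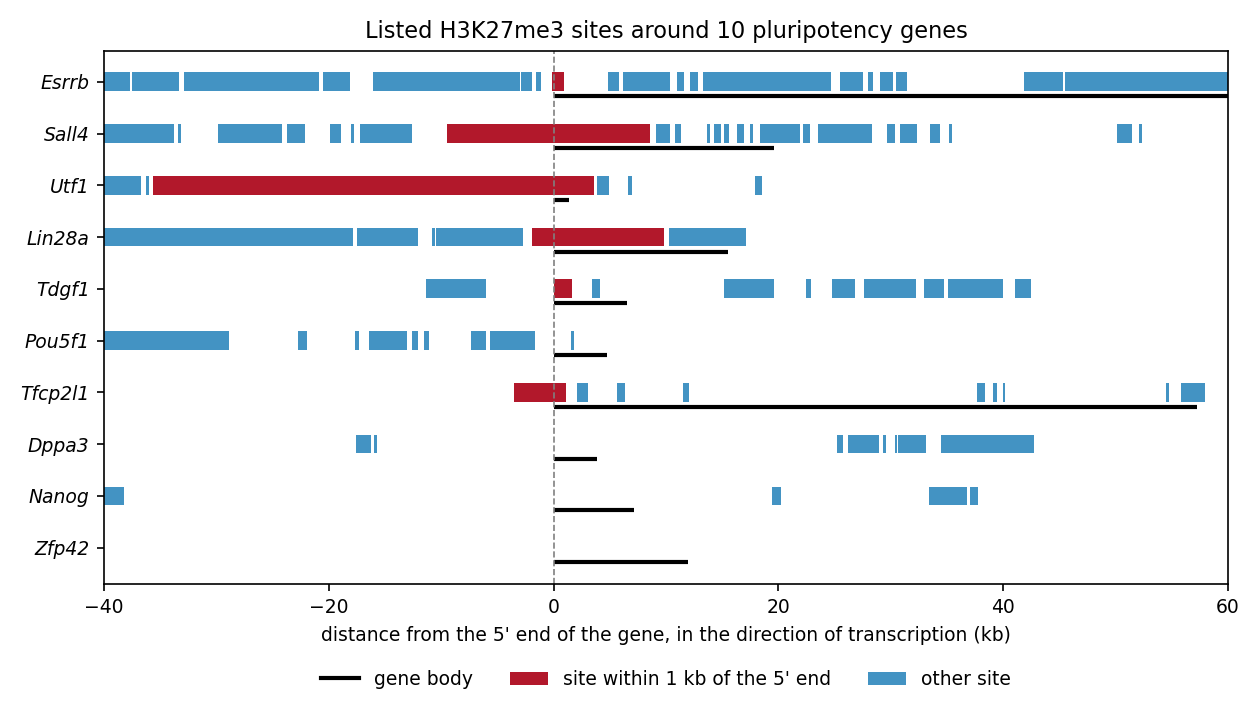
Listed H3K27me3 sites (boxes) around the 10 genes, by distance from the 5' end of the gene in the direction of transcription (kb), with the gene body as a black line; sites within 1 kb of the 5' end are red and all others blue. Utf1, Sall4, Lin28a and Tfcp2l1 have a wide site over the 5' end, Esrrb has a narrow one, that of Tdgf1 begins 21 bp inside the gene, and Pou5f1, Dppa3, Nanog and Zfp42 have none there, and for Zfp42 no site lies in the plotted range.

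Utf1, a chromatin-bound factor of undifferentiated embryonic cells, lay wholly inside the widest site of the 97. The gene (ENSMUSG00000047751.9, chr7:139943789-139945112, + strand) is 1324 bp long. The site ran over 39286 bp (chr7:139908120-139947405), from the neighbouring gene Kndc1 on the upstream side to 3616 bp beyond the 5' end of Utf1. It covered 100% of the window of 1 kb on either side of the Utf1 5' end and 100% of the body. The 3 other sites around Utf1 were 330 to 1026 bp wide. They lay downstream, and 2 of them were near start sites of Gm16201. The mark at Utf1 was therefore part of a stretch that also lay over another gene, and the centre of the site fell in coding sequence of Kndc1. Utf1 accordingly had no promoter site when the centre of a site was required to fall in the window.

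Sall4, a zinc finger factor that binds POU5F1 and NANOG, had a site of 18082 bp across its 5' end. The gene (ENSMUSG00000027547.17, chr2:168748332-168767943, - strand) held this site (chr2:168759348-168777429) both upstream of the 5' end and for 8595 bp downstream of it, and the 5' window was covered to 100%. In all 20 sites fell in the extended gene, with a median width of 624 bp. The remainder of the Sall4 body was marked in many short sites rather than in a single stretch, and 70.9% of the body was covered in all. Across the 3' side the sites went on into Atp9a, a phospholipid flippase gene, where 2 of them lay near Atp9a start sites. The 3 related genes Sall1, Sall2 and Sall3 each had a promoter site, against 26.9% of all genes, with 5.75%, 34.1% and 84.1% of the extended gene covered, against 67.7% for Sall4 and a median of 1.88% over all genes.

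Lin28a was covered nearly from end to end. The gene (ENSMUSG00000050966.9, chr4:134003330-134018841, - strand) had a site of 11723 bp over the 5' end (chr4:134009032-134020754) and one of 6861 bp over its 3' part (chr4:134001756-134008616), which together covered 97.3% of the body. The second of these lies 795 bp from an internal Lin28a start and also reached within 1 kb of a start of the dolichol synthesis gene Dhdds. Upstream a site of 31037 bp lay over Zfp683 and Crybg2. Lin28a thus stood in a run of sites that reached its neighbours or their start windows on both sides.

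Tfcp2l1, a factor of naive pluripotency, had its widest site at its 5' end and little of its body covered. The gene (ENSMUSG00000026380.10, chr1:118627945-118685168, + strand) had a site of 4582 bp (chr1:118624427-118629008) that covered 100% of the 5' window, but only 11.0% of the 57224 bp body was covered. The 8 other sites were 200 to 2114 bp wide and lay along the gene, 1 of them also near a start of the small RNA gene Gm23497. The narrowest, an intronic site of 200 bp at chr1:118667958-118668157, is the smallest width in the whole list and is printed on the + strand to show that it holds 0 CpG.
Tfcp2l1 intronic site: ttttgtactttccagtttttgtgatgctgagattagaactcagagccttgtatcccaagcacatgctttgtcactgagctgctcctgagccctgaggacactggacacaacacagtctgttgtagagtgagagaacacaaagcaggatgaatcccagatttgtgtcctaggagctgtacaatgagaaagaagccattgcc

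Esrrb, an orphan nuclear receptor and NANOG target, held 42 of the 97 sites, or 43.3%. The gene (ENSMUSG00000021255.17, chr12:86361117-86521628, + strand) is also the longest of the 10, at 160512 bp, and 82.7% of its body was covered. The site over the 5' end was only 1062 bp wide (chr12:86361012-86362073) and alone covered 53.1% of the window. A site of 25335 bp (chr12:86406661-86431995) covered the 2 internal starts that lie 60527 and 60766 bp downstream of the 5' end, and their windows were covered to 100%. The annotated 5' end of Esrrb was thus less covered than these internal starts. A further 3 sites were within 1 kb of other internal starts, 11 sites were intergenic, and 1 site of 12595 bp lay near a start of Gm48101.

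Tdgf1 had a promoter site that stayed inside the gene. The gene (ENSMUSG00000032494.12, chr9:110939603-110946158, - strand) had a site of 1577 bp (chr9:110944561-110946137) that began 21 bp past the 5' end, so that 49.0% of the window was covered, all of it on the gene side. Its CpG observed/expected ratio, the number of CpG relative to that given by its C and G content, was 0.684, the highest among the 97 sites. A second site of 781 bp lay over coding sequence. On the upstream side the next site, of 5349 bp, lay 5985 bp from the 5' end and reached within 1 kb of a start of the neighbouring gene Lrrc2, of whose 5' window 20.1% was covered. The annotated 5' ends of Tdgf1 and Lrrc2 both lay in the 6005 bp without a site in between.

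Pou5f1, the central factor of the network, was free of sites at its 5' end. The gene (ENSMUSG00000024406.16, chr17:35506018-35510772, + strand) had 6 sites upstream of it, of 366 to 3961 bp, the nearest of which (chr17:35500365-35504325) ended 1693 bp before the 5' end. Between this and the next site there were 3237 bp without a site, and the 5' end lay in them. The single site in the gene was 309 bp wide (chr17:35507563-35507871), with its centre in an exon. It lay 1545 bp downstream of the 5' end and 81 bp from an internal start, that of a transcript beginning 1464 bp downstream of the 5' end. It also lay 934 to 950 bp from 4 further internal starts, and it was counted as a promoter site through these 5 internal starts and not through the 5' end. Of all 75-base stretches of the 5' window 100% occurred once in the primary assembly, but 99.7% also occurred in an alternate strain sequence of the assembly. Aligning to such sequences can lower the unique coverage of a region. Whether the alignment used them is not given in the sources used here, and their part in the absence of a site was not tested. In the whole extended gene, which did hold 7 sites, 93.1% of stretches were shared in the same way.

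Nanog and Dppa3 lie near each other on chromosome 6 with their 5' ends 81079 bp apart, and neither had a site in its body. Nanog (ENSMUSG00000012396.12, chr6:122707489-122714633, + strand) had a single site of 795 bp at chr6:122726908-122727702, 19419 bp downstream of its 5' end. Dppa3 (ENSMUSG00000046323.8, chr6:122626410-122630272, + strand) had 2, of 1286 and 279 bp, and both lay at the start of Gdf3, a TGF-beta family ligand that is itself expressed in pluripotent cells. The 5' ends of the 2 genes thus fell in stretches without a site, of 57700 bp at Nanog and 40958 bp at Dppa3. Neighbouring genes of the cluster were marked, as 65.9% of the 5' window was covered at Gdf3 and 81.5% at the glucose transporter gene Slc2a3, while 0% was covered at Apobec1. The 5' windows of Nanog and Dppa3 had 100% and 99.0% of their 75-base stretches unique in the primary assembly.

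Zfp42 was the only one of the 10 genes without a site in the extended gene. The gene (ENSMUSG00000051176.6, chr8:43295063-43306980, - strand) lay in a stretch of 1921827 bp that held no site (chr8:43163421-45085247). Only 140 of the 101285 stretches between neighbouring sites, or 0.138%, were longer, and the median stretch was 1069 bp. Counted by gene the position was less rare, as 87.1% of all protein-coding genes had a site nearer to a TSS than Zfp42 did. The stretch also held the 5' ends of Adam26a, Adam26b, Adam34, Fat1, Gm5346, Mtnr1a and Triml2. The absence of sites was therefore shared by 8 protein-coding genes. Of its 75-base stretches 91.7%, and of those of the Zfp42 5' window 99.5%, were unique in the primary assembly.

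**Figure D2:**
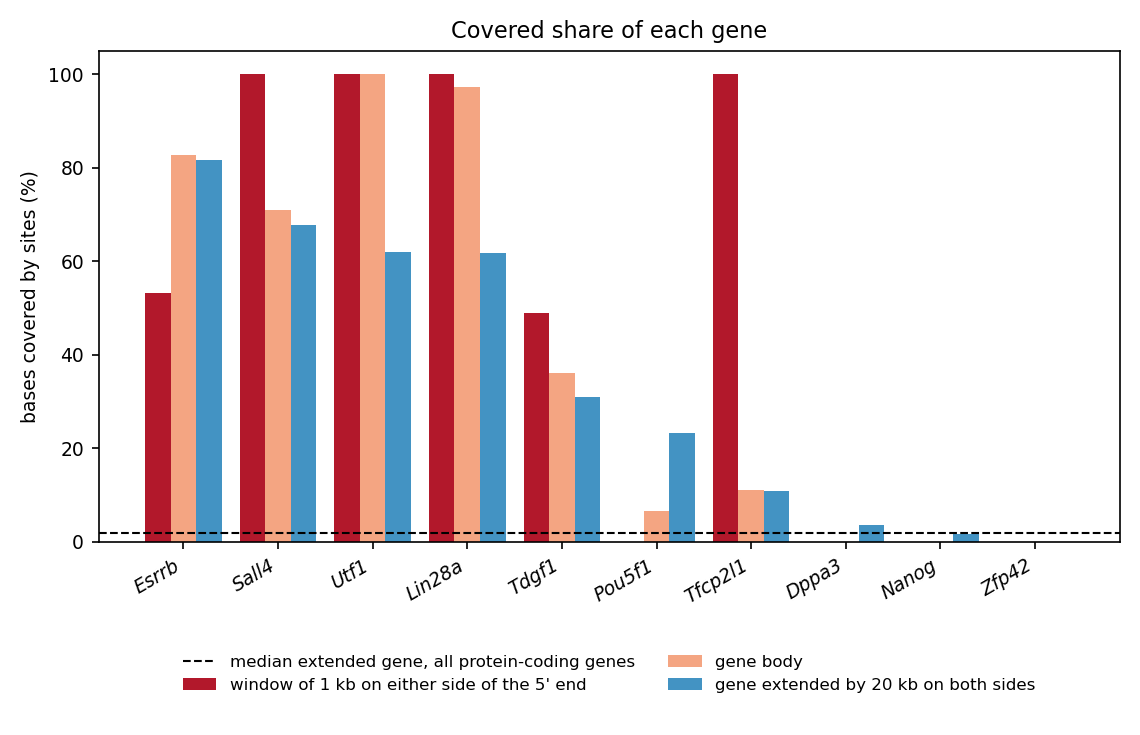
Share of bases covered by listed sites (%) in the window of 1 kb on either side of the 5' end (red), in the gene body (light) and in the gene extended by 20 kb on both sides (blue), for each of the 10 genes in order of the last. The dashed line is the median extended gene of all protein-coding genes, 1.88%, and 8 of the 10 genes lie above it. This depends on the extension: with 50 kb Nanog lay above the median (14.3% against 3.92%), and with 10 kb Dppa3 lay below it (0% against 0.449%).

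The 10 genes covered a wide range. In the extended gene the covered share was 81.6% at Esrrb, 67.7% at Sall4, 62.0% at Utf1 and 61.7% at Lin28a. It was 31.0% at Tdgf1, 23.2% at Pou5f1 and 10.8% at Tfcp2l1. It was 3.57% at Dppa3, 1.69% at Nanog and 0% at Zfp42. The values of Dppa3 and Nanog depend on the extension of 20 kb. With 10 kb both were 0%, against a median of 0.449% over all genes. With 50 kb they were 15.5% and 14.3%, against 3.92%, while Zfp42 stayed at 0%. With 20 kb the median of the 10 genes was 27.1%, against 1.88% over all protein-coding genes. Of all genes 98.7% had a lower share than Esrrb and 95.9% a lower share than Lin28a, while 49.0% had a lower share than Nanog. At the 5' end, 5 of 10 genes had at least 50% of the window covered, against 17.5% of all genes, and 4 of 10 had all of it covered, against 11.2%. Tdgf1, at 49.0%, lay just under the first of these limits and Esrrb, at 53.1%, just above it.

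Most of the 97 sites were distal. Promoter sites numbered 13, of which 5 were at Esrrb, 2 each at Lin28a and Sall4, and 1 each at Pou5f1, Tfcp2l1, Tdgf1 and Utf1. Just inside the limit of 1 kb were sites 795 bp from a start of Lin28a and 814 bp from a start of Esrrb, and just outside it were sites 1124 and 1540 bp from a start of Esrrb. Of the 84 distal sites, 41 lay in the gene itself away from its starts, 30 were intergenic, 10 lay at a start of another gene and 3 elsewhere in another gene. The promoter sites had a median width of 4582 bp, against 987 bp for the distal sites in the genes and 940 bp for the intergenic ones. Over all 97 the median was 1015 bp, against 676 bp over the full list, and 10.3% were 10 kb or wider, against 2.35%. Esrrb held 42 of the 97 sites, and its sites of 10 kb or wider measured 25335, 14102, 13988, 13445, 12595 and 11320 bp. The others of that width were at Utf1, Lin28a and Sall4, so the pooled widths do not describe the 10 genes alike. A wide site is more likely to touch a given window or extended gene than a narrow one. Width is thus not independent of the promoter call or of the choice of the 97 sites.

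**Figure D3:**
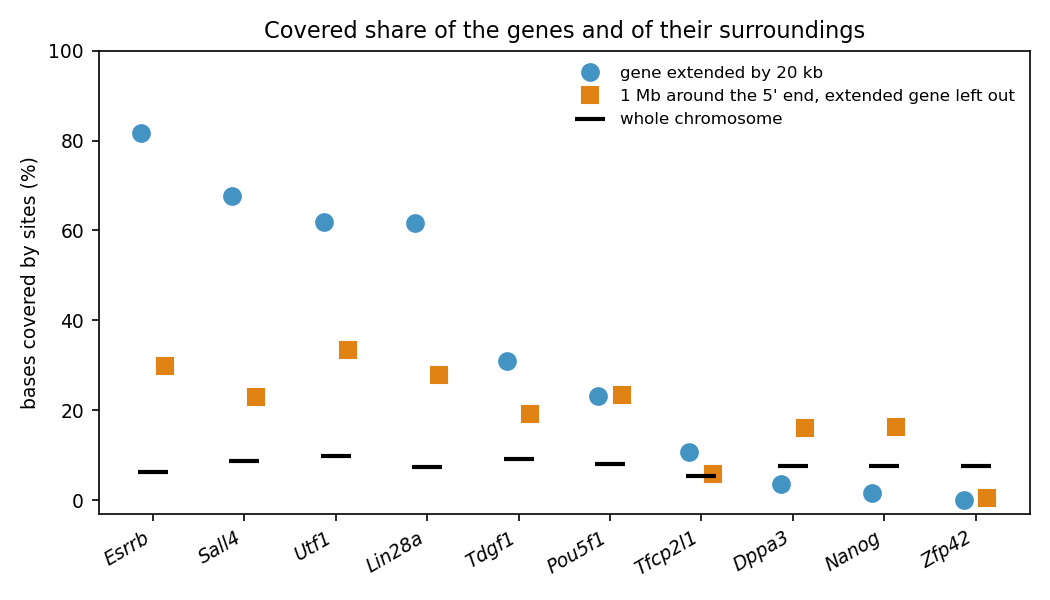
Share of bases covered by listed sites (%) in the extended gene (circles), in the 1 Mb around its 5' end with the extended gene left out (squares) and on its whole chromosome (bars), for the 10 genes. In 6 of them the circle lies above the square, by the widest margin at Esrrb, and for Dppa3, Nanog and Zfp42 it lies below both other values. With an extension of 50 kb in place of 20 kb, Dppa3 had 15.5% and Nanog 14.3%, above the 7.68% of their chromosome.

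The surroundings of the genes differed as well. In the 1 Mb around the 5' end, with the extended gene left out, the covered share was 33.5% at Utf1, 29.8% at Esrrb, 27.8% at Lin28a, 23.4% at Pou5f1, 23.0% at Sall4 and 19.2% at Tdgf1. It was 16.2% at Nanog, 16.1% at Dppa3, 5.72% at Tfcp2l1 and 0.422% at Zfp42. The chromosomes as a whole had 5.38% to 9.83%. Pou5f1 was thus covered about as much as its surroundings, at 23.2% against 23.4%, and Nanog and Dppa3 lay below theirs. When sites less than 3 kb apart were joined, Lin28a fell in a domain of 99139 bp with Cd52, Crybg2 and Zfp683, Sall4 in one of 44954 bp with Atp9a, and Utf1 in one of 63123 bp with Kndc1. Esrrb fell in 3 such domains, the longest of 280569 bp, which also held Vash1. Neighbours with their 5' end within 100 kb of that of the gene were not marked alike. They are read against 26.9% of all genes with a promoter site. At Pou5f1 3 of 9 protein-coding neighbours had one (the MHC class I genes H2-Q10, H2-Q7 and H2-Q6), and at Utf1 1 of 5 (Kndc1). At Lin28a 4 of 6 had one, at Tdgf1 4 of 7, at Nanog 2 of 3, at Dppa3 2 of 4 and at Sall4 1 of 1, while Zfp42, Esrrb and Tfcp2l1 had no protein-coding neighbour in that range. At Esrrb the gene body itself, of 160512 bp, fills the range on the downstream side.

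**Figure D4:**
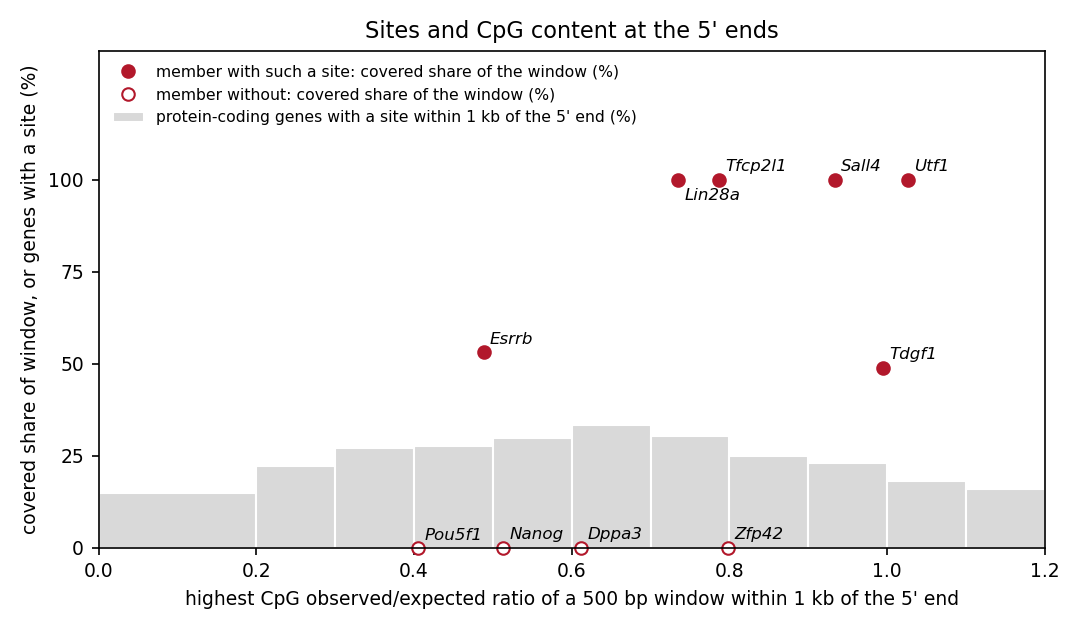
Covered share of the window of 1 kb on either side of the 5' end (%) against the highest CpG observed/expected ratio of a 500 bp window there, for the 10 genes (filled circles, with a site; open circles, without), with the share of protein-coding genes that have a site in each range of the ratio as grey bars (%, the last bar taking all higher ratios). The 6 genes with a site span ratios from 0.488 to 1.03 and the 4 without from 0.405 to 0.798.

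The highest CpG observed/expected ratio of a 500 bp window within 1 kb of the 5' end was 1.03 at Utf1, 0.994 at Tdgf1, 0.933 at Sall4, 0.787 at Tfcp2l1, 0.735 at Lin28a and 0.488 at Esrrb. Where no site was listed at the 5' end it was 0.798 at Zfp42, 0.612 at Dppa3, 0.513 at Nanog and 0.405 at Pou5f1. The ranges overlapped, and Esrrb had a site with a lower ratio than that of Zfp42, Dppa3 and Nanog. By CpG content, both genes with a CpG-rich 5' end (Utf1 and Tfcp2l1) had a promoter site at any TSS, against 23.4% of all such genes, as did 4 of the 7 with an intermediate one, against 33.9%, and the 1 with a CpG-poor one (Pou5f1), against 28.1%. At the 5' end alone, 22.2% of all genes with a CpG-rich 5' end, 29.6% of those with an intermediate one and 23.7% of those with a CpG-poor one had a site, and 2 of 2, 4 of 7 and 0 of 1 of the 10 genes did. In finer ranges of the ratio the share of all genes was 14.9% under 0.2, 33.4% from 0.6 to 0.7 and 15.9% from 1.1 upward.

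**Figure D5:**
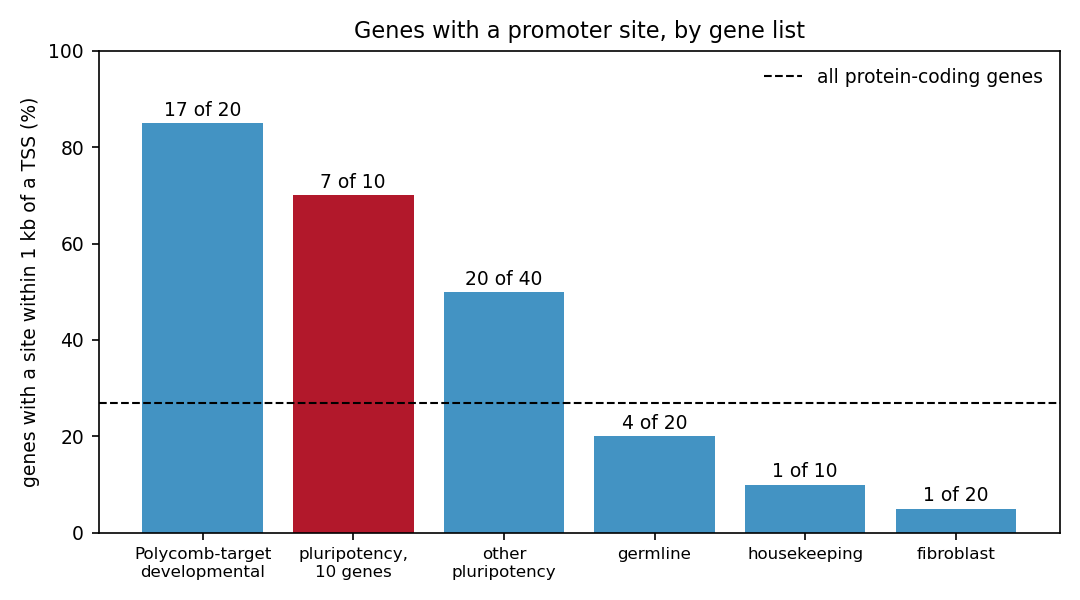
Share of genes with a site within 1 kb of any TSS (%) in 6 gene lists, with the counts above the bars, and the share over all protein-coding genes as a dashed line at 26.9%. The 10 pluripotency genes (red), the other pluripotency genes and the developmental genes lie above the line and the germline, housekeeping and fibroblast genes below it.

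Other genes of the pluripotency network were marked in part. Of 40 further genes 20 had a promoter site, against 26.9% of all genes. Those with 100% of the 5' window covered numbered 12 of 40, against 11.2% of all genes. They were Sox2, the partner of POU5F1, the signalling genes Fgf4, Nodal and Lefty2, the transcription factor genes Gbx2, Mycn, Nr0b1, Otx2 and Prdm14, the let-7 regulator Lin28b, the ubiquitin ligase Trim71, and Dnmt3l, a cofactor of DNA methyltransferases. In Dnmt3b, Eras, Fbxo15, Gdf3, Jam2 and Nr5a2 a part of the window was covered, and Tet1 had a site at an internal start alone. No promoter site was listed at Dppa2, Dppa4, Dppa5a, Esrra, Fgf5, Foxd3, Il6st, Klf2, Klf4, Klf5, L1td1, Lefty1, Lifr, Myc, Rif1, Sox15, Stat3, Tbx3, Tcl1 and Tet2. Of these 20 genes 8 did have sites elsewhere in the extended gene, namely Dppa5a, Esrra, Fgf5, Klf5, L1td1, Lifr, Tbx3 and Tcl1, and the covered share was highest at Tbx3, at 50.6%. Of all 40 further genes 28 had a site in the extended gene, against 61.5% of all protein-coding genes. Several of the 20 without a promoter site, such as Il6st, Stat3, Myc and Klf4, are also known to be used by fibroblasts. No RNA was measured in these files, and a link between use of these genes and the lack of a site was not tested.

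Other gene lists were read against 26.9% of all genes with a promoter site and 24.1% with a site at the 5' end. Of 20 developmental regulators that are known Polycomb targets 17 had a promoter site (Foxa2, Gata4, Hand1, Irx3, Lhx2, Lmx1b, Msx1, Neurog2, Nkx2-2, Olig2, Otx1, Pax2, Pax6, Sim1, Sox1, Tbx5 and Wt1). Where the centre of a site was required to fall in the window only 2 of 20 had one, against 18.5% of all genes, so that this list then lay below all genes. By the same rule 4 of the 10 pluripotency genes had one. A site that covers a start is dropped by this rule where its centre lies outside the window. Of the 20 developmental genes 13 had all of the 5' window covered, against 11.2% of all genes and 4 of the 10 pluripotency genes. Under the rule used throughout, 4 of 20 germline genes had a promoter site (Mov10l1, Nanos3, Tdrd1 and Tex101), a share near that of all genes (26.9%), and 1 of 20 did so at the 5' end, against 24.1%. Of 10 housekeeping genes 1 had one (Eef1a1), against 26.9%, at a start other than the 5' end. Of 20 genes that mark fibroblasts 1 had one, Pdgfra, against 26.9%, and the 5' windows of all 20 were free of sites, against 24.1% of all genes with one. The housekeeping genes had none at the 5' end either, so the list does not tell whether the cells are fibroblasts.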

How the data were processed

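The authors used Trim Galore on the single-end reads, BWA with mm10 (GRCm38.p6) for alignment, samtools for filtering, Picard to merge replicates, and MACS for broad peaks. Versions, cutoffs and the rule by which peaks were joined over samples are not given in the sources used here. The deposited list has no count, score or other measured value, only positions in bp, so the planned comparisons of time points were not run. The depth obtained for each library is not known from it, since the study gives only a minimum that was aimed for. Starts were read as counted from 0, an inference from the smallest width of 200 bp, and are printed counted from 1.

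Sites were set against genes of GENCODE M21 on GRCm38 (chromosomes 1 to 19 and X) with Python 3.11.15, numpy 2.4.6 and pandas 2.3.3. Overlap counting was tested on simulated sites for 1004 genes, with 0 mismatches. A 5' end was CpG-rich if any 500 bp window had an observed/expected ratio above 0.75 with more than 55% GC. It was CpG-poor if no window had a ratio above 0.48, and intermediate otherwise. Uniqueness was counted over 75-base stretches. Promoter sequences are from RefSeq. All 10 genes were named, with the genes of other lists that had a promoter site, except 1 gene that is not reported here. The genes and lists were chosen with earlier results of these data known. Alternatives changed the window, the extension, the smallest width and the joining of sites.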

Additional observations from a re-analysis of the deposited data

How the results depend on the processing

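The number of the 10 genes with a promoter site lay between 4 and 7 over 10 alternatives, and was 4 where a site counted only if its centre fell in the window. Nanog, Zfp42 and Dppa3 had none in any of them, and Esrrb, Tdgf1 and Sall4 had one in all 10. Lin28a, Tfcp2l1 and Utf1 lost theirs under the centre rule, and Pou5f1 lost its own in 4 of 10. The count of developmental genes was 14 to 17 of 20 in 9 of the 10 alternatives. Under the centre rule the counts were 2 of 20 for the developmental and 2 of 20 for the germline genes, against 18.5% of all genes, so that the developmental genes went from above to below all genes. With the 5' end alone (24.1% of all genes) they were 1 for the germline, 0 for the fibroblast and 0 for the housekeeping genes. With at least 50% of the window of any start covered (20.3% of all genes) they were 0 for the fibroblast and 0 for the housekeeping genes. With sites of at least 1000 bp (22.4% of all genes) they were 2, 0 and 0 for germline, fibroblast and housekeeping genes, and with sites of at least 500 bp (24.9%) 0 for housekeeping genes. With a window of 3 kb (33.5%) it was 2 for housekeeping genes, and with starts of protein-coding transcripts alone (25.8%), an alternative chosen after seeing the data, it was 2 for germline and 0 for housekeeping genes. The median covered share was 26.0% with an extension of 10 kb (0.449% over all genes) and 23.5% for the body alone (0% over all genes). It was 29.5% and 36.4% with sites under 1000 and under 3000 bp apart merged (2.16% and 2.50% over all genes). With sites of at least 1000 and at least 500 bp it was 23.9% and 25.4% (0% and 1.45% over all genes). The sites in the extended genes numbered 146 with 50 kb, 55 for the body alone, 37 and 20 after merging under 1000 and 3000 bp, and 49 with sites of at least 1000 bp. A site in the body alone was found in 6658 protein-coding genes, or 30.6%, and in 7 of the 10 genes. The count of other pluripotency genes moved by less than 1.5 times in all 10 alternatives.

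No paired analysis was possible because the list is joined over all samples and holds no value of a single library. Leaving out a replicate was not run for the same reason. The depth obtained per library is not known from the list, so a site missing from the list is not shown to be absent from the cells. The lists hold few genes, and sites of neighbouring genes are not independent.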
